A study of Arabidopsis thaliana with 27 samples.

Results

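Transcripts of 44 genes that run or accompany the cell cycle were followed in Arabidopsis seedlings given shade-like light. They were picked by gene identifier from their known function, out of 34262 counted genes, and all 44 were among the 20887 genes with enough reads to be tested. By role, 23 act in G2 and mitosis (CYCB1-1 to CYCB1-4, CYCB2-1 to CYCB2-4, CYCA1-1, CYCA2-1 to CYCA2-4, CDKB1-1, CDKB1-2, CDKB2-1, CDKB2-2, KNOLLE, HINKEL, AUR1, AUR2, CDC20.1 and CDC20.2). Another 14 serve DNA replication (CYCA3-1, CYCA3-2, MCM2 to MCM7, PCNA1, PCNA2, E2FA, CDC6, RNR2A and TSO2), 6 are D-type cyclins of G1 (CYCD1-1, CYCD2-1, CYCD3-1 to CYCD3-3 and CYCD4-1), and the last is the kinase CDKA-1.

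RNA was sequenced from pools of whole seedlings aged 7 days, in 27 libraries that fall into 9 groups of 3 biological replicates. The genotypes were the wild type Col-0, the triple mutant pif457 (pif4-101 pif5-3 pif7-1) and the mutant hfr1 (hfr1-101). PIF4, PIF5 and PIF7 are bHLH transcription factors that drive shade-induced growth, and HFR1 is an atypical bHLH protein that binds PIFs and keeps them off DNA. Each genotype was kept in white light with a high red to far-red ratio (HRFR) or moved to a low ratio, the light signal of neighbouring plants, for the last 1 h (LRFR 1h) or the last 25 h (LRFR 25h), and all pools were taken at the same age and time of day. A whole seedling holds root tips, the shoot apex, leaf primordia and the stomatal lineage of the cotyledons, which all divide, so fewer dividing cells and less transcript per dividing cell cannot be told apart here.

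Plant cells enter the cycle when D-type cyclins with CDKA-1 inactivate the retinoblastoma protein RBR1 and so free E2F factors, which switch on replication genes. Licensed origins carry the MCM2 to MCM7 helicase, loaded with the help of CDC6, and PCNA is the clamp that holds polymerases on DNA. Entry into mitosis needs CDKs of the plant-specific B class with A- and B-type cyclins, whose genes are read through MSA elements bound by MYB3R factors. In seedlings these transcripts come from a small share of cells, since most cells of the hypocotyl and cotyledons have left the cycle and grow by expansion.

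The upstream DNA of the members was read for these elements. In a window of 300 bases, from 250 before to 49 after the annotated start of each gene (TAIR10.1 RefSeq annotation), the MSA core AACGG was searched on both strands, and its reverse complement reads CCGTT. It occurred in 15 of 23 mitotic genes (65.2%), in 4 of 14 replication genes (28.6%) and in 24.7% of all 27443 protein-coding genes. The longer form AACGGTT was present in 5 of 23 mitotic genes (21.7%) against 3.61% of all. The stretches below are from mitotic cyclins with at least 2 upstream cores close together. They are not all of these cyclins, since CYCB2-3 also has 3 upstream cores close together and its stretch is not shown. Single cores farther off, in CYCB1-1 and CYCB1-2, and cores past the start, in CYCB1-2 and CYCA1-1, are not shown. Each is written 5′ to 3′ on the strand of its gene, with positions counted from the gene start, the core in capitals, up to 10 bases on either side of a cluster of upstream cores that lie within 60 bases of the next, and the genomic interval on TAIR10.1.

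CYCB1-1 (AT4G37490), positions -71 to -1, minus strand of chr4:17624309-17624379: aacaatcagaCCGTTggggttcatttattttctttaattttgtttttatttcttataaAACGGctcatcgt
CYCB1-2 (AT5G06150), positions -79 to -1, minus strand of chr5:1861704-1861782: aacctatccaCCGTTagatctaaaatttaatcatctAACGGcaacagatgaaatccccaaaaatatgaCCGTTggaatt
CYCB1-3 (AT3G11520), positions -74 to -1, minus strand of chr3:3627274-3627347: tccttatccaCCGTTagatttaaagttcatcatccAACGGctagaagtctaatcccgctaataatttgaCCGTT
CYCB2-1 (AT2G17620), positions -147 to -42, plus strand of chr2:7663908-7664013: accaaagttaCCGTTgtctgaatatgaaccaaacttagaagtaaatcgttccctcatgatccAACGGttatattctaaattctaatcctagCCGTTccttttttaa
CYCB2-2 (AT4G35620), positions -182 to -88, plus strand of chr4:16901414-16901508: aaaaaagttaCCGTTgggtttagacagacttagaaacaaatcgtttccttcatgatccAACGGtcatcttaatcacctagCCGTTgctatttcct
CYCA1-1 (AT1G44110), positions -215 to -168, minus strand of chr1:16777520-16777567: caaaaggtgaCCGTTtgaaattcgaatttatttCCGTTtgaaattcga

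The other element was found in some of the replication genes. An E2F site, searched on both strands as TTTCCCGC, TTTGCCGC, TTTCGCGC or TTTGGCGC, lay in 5 of 14 replication genes (35.7%), in none of the 23 mitotic genes and in 1.76% of all genes. The 5 are helicase subunits, MCM2 to MCM6, and CYCD3-3 was the only D-type cyclin with a match. They are shown with the site in capitals and up to 18 bases on either side, under the same conventions.

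MCM2 (AT1G44900), positions -32 to -1, plus strand of chr1:16970182-16970213: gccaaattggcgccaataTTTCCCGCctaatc
MCM3 (AT5G46280), positions -188 to -145, minus strand of chr5:18773851-18773894: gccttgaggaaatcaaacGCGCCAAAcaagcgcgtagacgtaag
MCM4 (AT2G16440), positions -53 to -10, minus strand of chr2:7130739-7130782: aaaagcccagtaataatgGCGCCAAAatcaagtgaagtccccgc
MCM5 (AT2G07690), positions -37 to -1, minus strand of chr2:3527501-3527537: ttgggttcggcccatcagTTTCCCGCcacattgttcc
MCM6 (AT5G44635), positions -64 to -21, minus strand of chr5:18010688-18010731: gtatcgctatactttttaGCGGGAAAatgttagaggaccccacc
CYCD3-3 (AT3G50070), positions -122 to -79, minus strand of chr3:18566913-18566956: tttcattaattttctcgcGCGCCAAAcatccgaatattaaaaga

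The G-box CACGTG, a sequence PIFs bind, was found in the same window of CYCB2-3 and RNR2A and of no other member, against 7.68% of all genes. The paper also names the PBE-box, which was not searched, and it called PIF7 targets over a wider span around each gene. A match is a string of letters and not a measured binding site, and a window without a match says nothing about the factor.

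**Figure D1:**
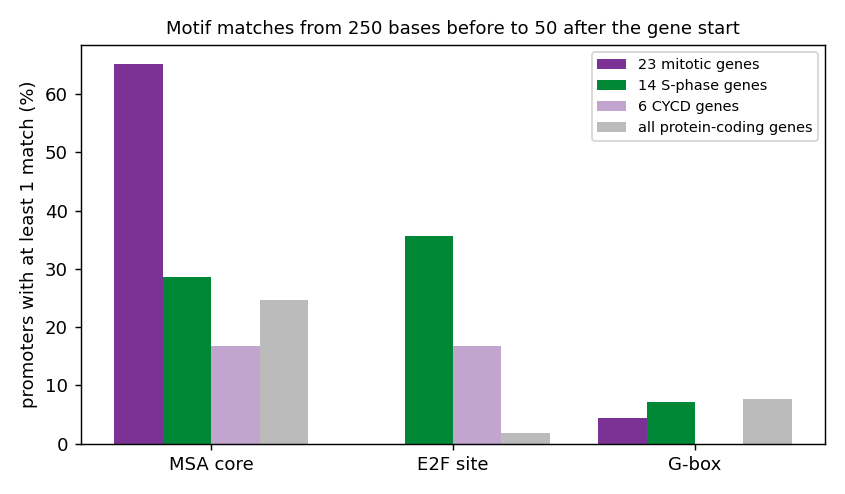
Share of promoters (%, vertical axis) with at least 1 match to the MSA core, the E2F site or the G-box, for the mitotic, S-phase and CYCD genes and for all protein-coding genes (bar colours). The MSA core reaches 65.2% in mitotic genes against 24.7% of all genes, and the E2F site 35.7% in S-phase genes against 1.76%.

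The libraries held 24857067 to 34863803 reads in genes. In pif457, PIF5 lay at 11.2 to 14.8 counts per 1000000 reads (CPM) against 111 to 166 in Col-0, PIF7 at 2.48 to 3.85 against 26.5 to 53.1, and PIF4 at 46 to 62 against 65.6 to 105, each range over 9 libraries. HFR1 reads were not reduced in the libraries labelled hfr1 (19.5 to 226 CPM, against 13.6 to 151 in Col-0), so this count does not check that label. Over all genes 2 libraries, replicate 1 of Col-0 at HRFR and replicate 1 of Col-0 at LRFR 25h, lay far from the other 25, and their summed root markers were 419 and 496 CPM, against 228 to 266 in the other libraries of their groups. Results that rest on this pair are given with and without it.

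Across all 9 groups, cell cycle transcripts varied more often than transcripts in general. By the quasi-likelihood test of edgeR with Benjamini-Hochberg adjustment over all tested genes (passing at adjusted p below 0.05, used throughout), 36 of 44 members differed between at least some groups, where 40.1% of all genes did. The 36 were 19 of 23 mitotic genes, 13 of 14 replication genes and 4 of 6 D-type cyclins. Members below the threshold were CYCB2-3, CYCA2-1, CYCA2-2, CDKB1-2, E2FA, CYCD2-1, CYCD4-1 and CDKA-1. The lowest adjusted p belonged to RNR2A (2e-07), CYCD1-1 (5.83e-06), CYCD3-3 (4.24e-05) and CYCA3-2 (5.5e-05).

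For most members pif457 was the highest genotype in each light. Group means were highest in pif457 for 41 of 44 members in HRFR, 41 after 1 h and 42 after 25 h of LRFR. They were lowest in hfr1 for 40 members in HRFR and 41 after 1 h, while after 25 h hfr1 was lowest for 24, Col-0 for 18 and pif457 for 2. That split at 25 h rested on the pair that stood apart, since fitted differences of hfr1 from Col-0 at 25 h were above 0 for 20 of 44 members with the pair and for 9 without it. The highest group of all was pif457 LRFR 25h for 26 members and pif457 HRFR for 12, and the lowest was hfr1 HRFR for 25. From the lowest to the highest group the median span was 1.97-fold for mitotic genes (1.44 to 2.46), 1.75-fold for replication genes (1.42 to 1.94) and 1.56-fold for D-type cyclins, from 1.11 for CYCD2-1 to 1.84 for CYCD3-1. CDKA-1 spanned 1.07-fold.

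Mean log2 levels over the members of a class were set to 0 at the mean of Col-0 HRFR. The group means of pif457 were above those of the other genotypes, while single libraries overlapped. For mitotic genes the 3 Col-0 groups lay at 0 ± 0.45, 0.25 ± 0.39 and -0.08 ± 0.23 in HRFR, LRFR 1h and LRFR 25h (mean ± SD of 3 libraries). The pif457 groups lay at 0.56 ± 0.17, 0.47 ± 0.24 and 0.64 ± 0.14, and the hfr1 groups at -0.22 ± 0.29, -0.14 ± 0.31 and -0.12 ± 0.18. All 9 pif457 libraries (0.20 to 0.77) were above the Col-0 HRFR mean, and 4 of the 18 other libraries (-0.51 to 0.58) were higher than the lowest of them. For replication genes the pif457 libraries held 0.25 to 0.59 and the other 18 libraries -0.31 to 0.35, with 2 of the 18 above the lowest pif457 library. D-type cyclins gave 0.14 to 0.36 in pif457 against -0.15 to 0.20, with 3 of 18 above. The 2 lowest mitotic levels in Col-0, -0.51 and -0.34, were those of the pair that stood apart. With replicate 1 of Col-0 HRFR left out of the reference, every level falls by 0.25 for mitotic genes, 0.16 for replication genes and 0.07 for D-type cyclins, with the distances between libraries unchanged. The lowest pif457 mitotic level, 0.20 above, then lies below the Col-0 HRFR mean.

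**Figure D2:**
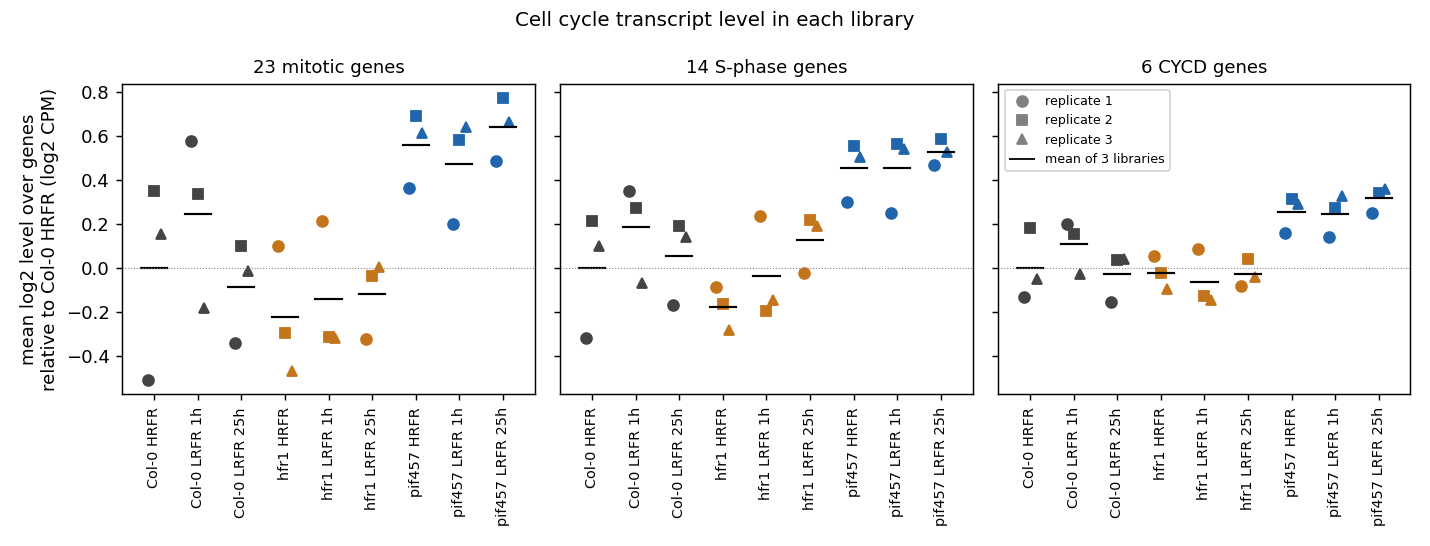
Mean log2 level over the 23 mitotic, 14 S-phase and 6 CYCD genes in each of the 27 libraries, relative to the mean of Col-0 HRFR (vertical axis, log2 CPM), by group (horizontal axis). Symbols mark replicates and bars the mean of 3 libraries. The pif457 libraries lie at 0.20 to 0.77 for mitotic genes and 0.25 to 0.59 for S-phase genes.

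**Figure D3:**
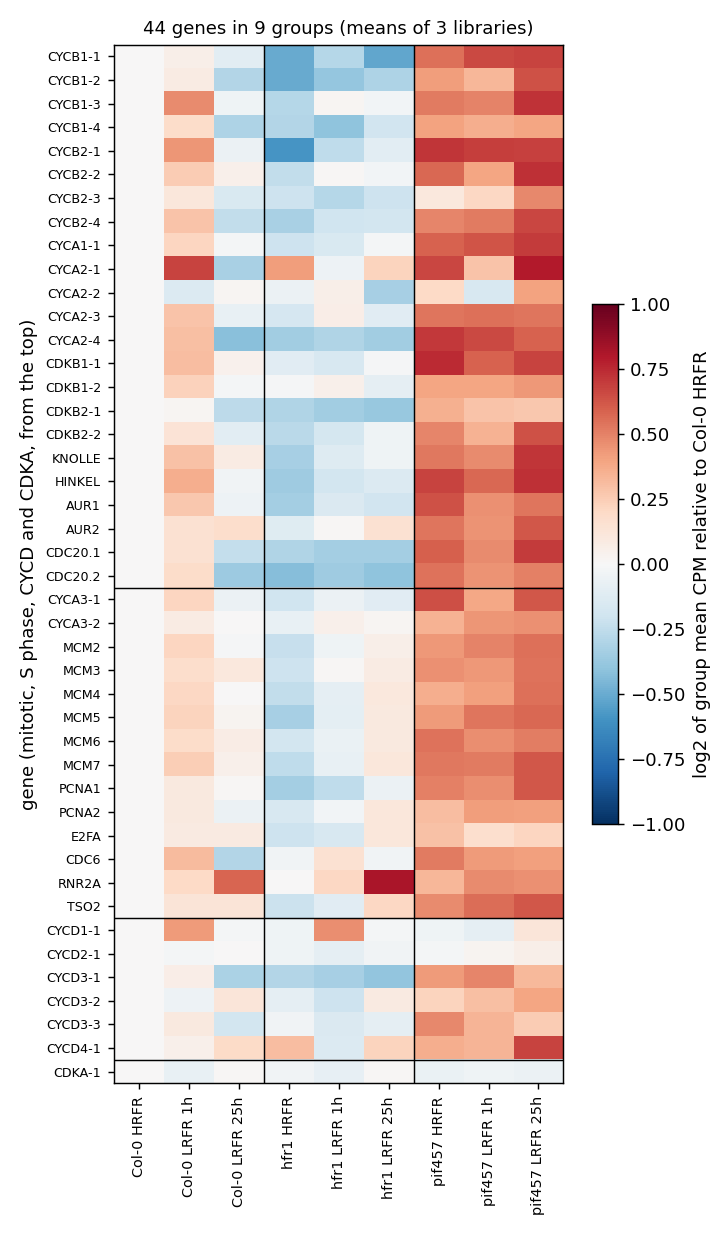
Group mean of each of the 44 genes (rows, by class) in the 9 groups (columns), as log2 CPM relative to Col-0 HRFR (colour, clipped at 1 in either direction). The pif457 columns are higher than the Col-0 columns for most rows, while CDKA-1 and CYCD2-1 stay near 0 in all 9 groups.

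The triple mutant carried more of nearly every cell cycle transcript than Col-0. Averaged over the 3 light conditions (a comparison added after the data were seen), 36 members were higher and 1, CYCD1-1, was lower in pif457, where 19.0% of all genes passed in either direction and 9.35% were higher. Within single light conditions CYCD1-1 passed as lower only after 1 h (-0.52 on the log2 scale), and at 25 h its fitted difference was above 0. The higher members were 19 of 23 mitotic genes, with a median log2 fold change of 0.48, 13 of 14 replication genes (median 0.42) and 4 of 6 D-type cyclins, beside a median of 0.00 over all tested genes. These shifts were small, and 3 members exceeded 0.6 on the log2 scale, as 3.32% of all genes did: CYCA2-4 (0.69, adjusted p = 0.00429), CYCB1-1 (0.64, adjusted p = 0.0172) and CDC20.1 (0.62, adjusted p = 0.0104). Without the pair of Col-0 libraries that stood apart, 26 members were higher and CYCD1-1 was still lower, and leaving out any single library gave 31 to 37 passing members.

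**Figure D4:**
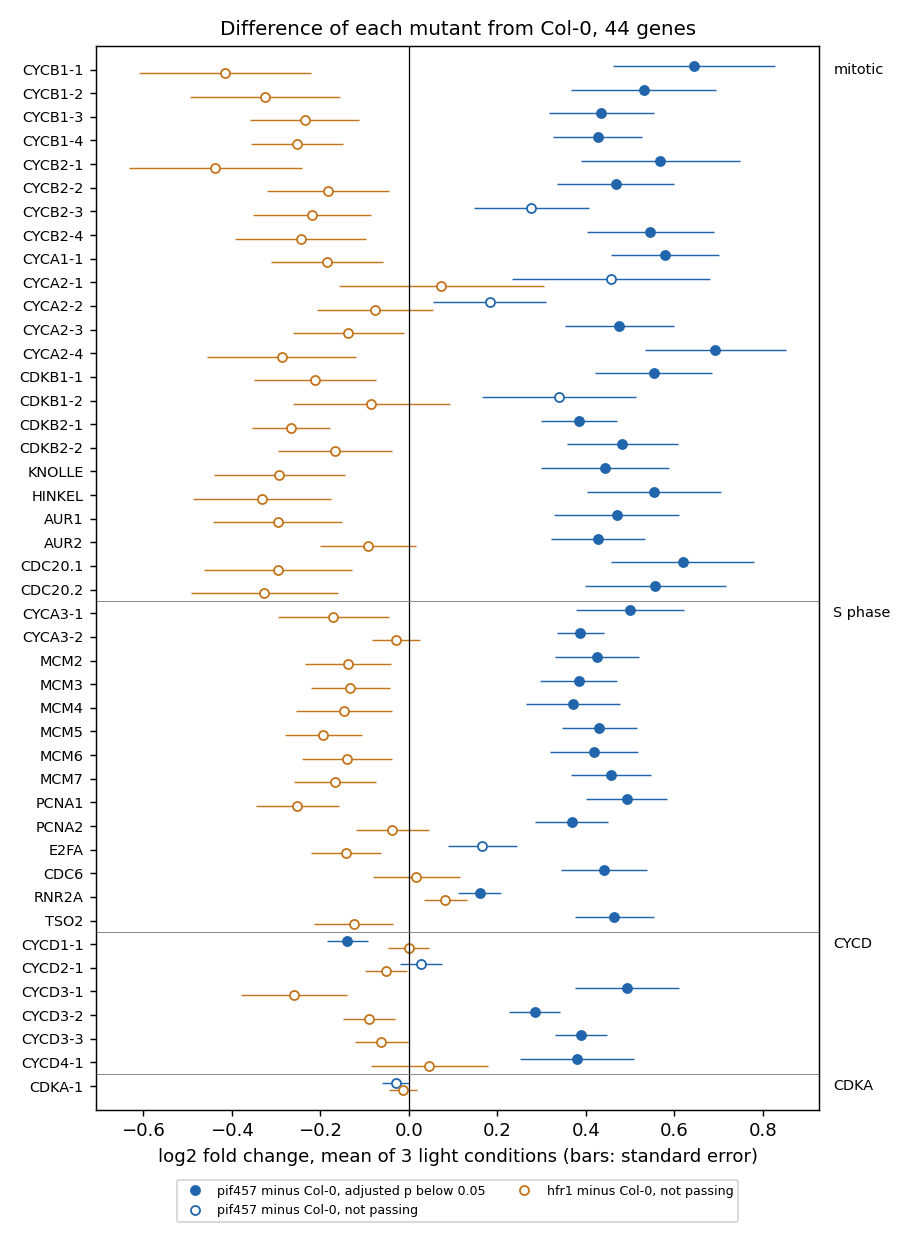
Difference of pif457 (blue) and hfr1 (orange) from Col-0 averaged over the 3 light conditions for each of the 44 genes (rows), as log2 fold change with its standard error (horizontal axis). Filled points have adjusted p below 0.05, and the 37 filled points are all of pif457, 36 to the right of 0 and CYCD1-1 to the left.

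After 25 h of LRFR, 16 of 44 members were higher in pif457 and none lower, where 6.87% of all genes passed and 2.83% were higher, and 9 of the 16 exceeded 0.6 on the log2 scale (2.84% of all genes in either direction). The 3 pif457 libraries lay clear of the 3 Col-0 libraries in 34 members, as they did in 26.2% of all genes. The count was sensitive to single libraries: it was 26 without Col-0 HRFR replicate 1 and between 1 and 8 without Col-0 LRFR 25h replicate 1 (5) or 3 (8) or pif457 LRFR 25h replicate 1 (6), 2 (1) or 3 (2). Without the pair that stood apart 8 were higher and RNR2A was lower, and 7 of the 16 still passed (CYCB1-4, CYCB2-4, CDKB2-2, PCNA1, CDC6, CYCA3-2 and CYCD3-3). No member passed the test of a difference between the 25 h responses of pif457 and Col-0 by edgeR, and 1 had an unadjusted p below 0.05, so the gap at 25 h is not shown to differ from that in HRFR.

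Among the mitotic genes that passed at 25 h, CYCA2-4, an A2-type cyclin, had the largest fold change: Col-0 held 2.4, 4.48 and 3.79 CPM and pif457 6.66, 7.47 and 7.27, a log2 fold change of 1.01 (SE 0.28, adjusted p = 0.034). CDC20.1, an activator of the anaphase-promoting complex, gave 8.32, 17.2 and 14.6 CPM in Col-0 and 23.4, 29.3 and 24.3 in pif457 (0.95, SE 0.28, adjusted p = 0.0451). In both genes the lowest Col-0 library was replicate 1, which stood apart, and neither passed without the pair (CYCA2-4 0.78, adjusted p = 0.0509, and CDC20.1 0.69, adjusted p = 0.115). The call of CDC20.1 was lost in 19 of 37 alternatives, with adjusted p up to 0.178, among them 16 that left out 1 library. CDC20.1 lies next to the near-identical CDC20.2, so the division of reads between them is uncertain.

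Of the 8 B-type cyclins, the partners of CDKs at the entry into mitosis, 3 passed at 25 h. CYCB2-4 gave 3.74, 5.13 and 4.73 CPM in Col-0 and 7.29, 9.52 and 8.84 in pif457 (0.92, SE 0.25, adjusted p = 0.0285). CYCB1-3 gave 3.29, 4.07 and 2.96 against 5.77, 6.02 and 5.76 (0.77, SE 0.21, adjusted p = 0.0272). For CYCB1-4, values of 5.21, 4.92 and 5.55 CPM in Col-0 lay below 7.91, 9.07 and 8.53 in pif457 (0.70, SE 0.18, adjusted p = 0.0183). In these 3 cyclins the lowest pif457 library was above the highest Col-0 library. Of 37 alternatives, the call was lost in 3 for CYCB2-4, 7 for CYCB1-3 and 2 for CYCB1-4. CYCB1-1, CYCB1-2, CYCB2-1, CYCB2-2 and CYCB2-3 had fold changes of 0.63 to 0.93 on the log2 scale at 25 h that did not pass (adjusted p = 0.0508 to 0.148). CYCB1-1, the cyclin most used as a reporter of dividing cells, held 2.55, 3.5 and 3.79 CPM in Col-0 and 4.96, 6.65 and 5.27 in pif457. It passed in the average over light.

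Of the other mitotic genes, CYCA1-1, the A1-type cyclin whose upstream DNA is printed above, gave 5.03, 7.97 and 7.28 CPM in Col-0 and 8.95, 13.2 and 11.2 in pif457 at 25 h (0.72, SE 0.21, adjusted p = 0.0406). CDKB2-2, a B2-type kinase that peaks at the entry into mitosis, gave 5.7, 7.12 and 4.69 against 8.84, 10.9 and 9.52 (0.74, SE 0.22, adjusted p = 0.0406). Its paralogue CDKB2-1 was at 9.91, 12.6 and 12.4 against 16.2, 18.4 and 15.8 (0.53, SE 0.15, adjusted p = 0.0342). None of these groups overlapped. KNOLLE, the syntaxin that fuses vesicles into the cell plate, was at 12.6, 21.2 and 18.4 against 25.8, 29 and 25.9 CPM, and HINKEL, a kinesin of the cytokinetic phragmoplast, at 9.54, 16.3 and 13.5 against 18.5, 24.3 and 23.7. Their log2 fold changes of 0.63 and 0.77 did not pass at 25 h (adjusted p = 0.121 and 0.0784), and both genes passed in the average over light (0.44 and 0.55).

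Of the 14 replication genes 7 passed at 25 h, all higher in pif457, and 12 had groups that did not overlap. The overlapping ones were E2FA (0.13, adjusted p = 0.602) and RNR2A (-0.13, adjusted p = 0.35). CDC6, which loads the helicase at origins, gave 2.77, 3.09 and 2.06 CPM in Col-0 and 4.44, 4.23 and 4.19 in pif457 (0.70, SE 0.17, adjusted p = 0.0158). PCNA1 gave 12.5, 14.8 and 15.8 in Col-0, all below the pif457 libraries, of which the upper were at 21.6 and 24.1 (0.61, SE 0.16, adjusted p = 0.0209), and its near-identical copy PCNA2 16.4, 21.4 and 19 against 23.6, 29.1 and 26.2 (0.48, adjusted p = 0.0455). The split between the PCNA copies is uncertain, but both were higher. Among helicase subunits MCM7 went from 22.7, 30.8 and 28.3 CPM to 39.7, 42.2 and 39.2 (0.57, adjusted p = 0.0315), MCM2 from 15.1, 22.5 and 21.2 to 27.6, 30.3 and 29 (0.57, adjusted p = 0.0404), and MCM5 from 20.6, 25.5 and 26.1 to 34.1, 37.5 and 34.5 (0.56, adjusted p = 0.0249). MCM3, MCM4 and MCM6 had fold changes of 0.43 to 0.55 that did not pass (adjusted p = 0.0718 to 0.123), and the 6 subunits of the complex lay between 0.43 and 0.57.

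CYCA3-2, an A3-type cyclin linked to S phase, had the most even difference of all members. Its pif457 libraries held 17.4, 17.5 and 17.8 CPM in HRFR, 16.1, 19.5 and 20.6 after 1 h and 19.3, 18.1 and 19.3 after 25 h. Col-0 held 12.6, 15.4 and 13.4, then 15.2, 15.4 and 13.3, then 12.8, 14.4 and 14.2. It was the only member in which all 9 pif457 libraries were above all 9 Col-0 libraries, as in 0.852% of all genes in either direction. The log2 fold change was 0.35 in HRFR (adjusted p = 0.0377), 0.35 after 1 h (adjusted p = 0.0247), 0.46 after 25 h (adjusted p = 0.00363) and 0.39 averaged over light (SE 0.05, adjusted p = 1.67e-05). The HRFR call was lost in 9 of 37 alternatives (adjusted p up to 0.222). Among these were the fits without any 1 pif457 HRFR replicate, Col-0 HRFR replicate 1 or 3, or the pair that stood apart. After 1 h the call was lost in 6 of 37 (adjusted p up to 0.185).

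D-type cyclins did not move as a block. CYCD3-3 and its paralogues CYCD3-1 and CYCD3-2 keep leaf cells dividing, and CYCD3-3 differed in HRFR, with 10.1, 13.1 and 11.7 CPM in Col-0 and 15.7, 16.5 and 16.5 in pif457 (0.49, SE 0.10, adjusted p = 0.00884), and at 25 h, with 10.9, 10.6 and 9.01 against 12.5, 14 and 14.8 (0.44, SE 0.10, adjusted p = 0.0113). CYCD3-2 passed after 1 h, with 38.2, 35.7 and 34 CPM in Col-0 and 39.8, 46.2 and 51.7 in pif457 (0.35, SE 0.10, adjusted p = 0.0456). That call was lost in 25 of 37 alternatives (adjusted p up to 0.308), among them other size factors, no filter on low counts and 19 of the 27 that left out 1 library. Against Col-0, CYCD3-1 passed only in the average (0.49, SE 0.12, adjusted p = 0.00563), and its libraries in HRFR were 14, 23.7 and 23.7 CPM in Col-0 and 24.4, 30 and 28.4 in pif457. CYCD4-1, at 0.723 to 2.06 CPM over all libraries, had 0.38 in the average (adjusted p = 0.0416). CYCD2-1 lay between 11.8 and 15 CPM in all 27 libraries and had an average difference of 0.03 (SE 0.05, adjusted p = 0.716).

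In HRFR and after 1 h fewer members passed, although the direction was the same. In HRFR 41 of 44 fitted differences were above 0 (median 0.49) and 27 members had groups that did not overlap, as 23.4% of all genes did, but only CYCA3-2, CYCD3-3 and RNR2A passed (2.70% of all genes), and 31 members had an unadjusted p below 0.05. Without the pair that stood apart 1 passed and the median was 0.30. Without Col-0 HRFR replicate 1 or pif457 HRFR replicate 2 the count was 0, without pif457 HRFR replicate 3 it was 1, and without Col-0 LRFR 1h replicate 3, hfr1 LRFR 1h replicate 1 (5 each) or Col-0 HRFR replicate 2 (8) it was higher. After 1 h the median was 0.25, and CYCA3-2, CYCD3-2 and, lower in pif457, CYCD1-1 passed (4.21% of all genes). Without Col-0 LRFR 1h replicate 3, pif457 LRFR 1h replicate 2 or pif457 LRFR 1h replicate 3 the count was 1, and without the pair it was 5.

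In the libraries labelled hfr1 most fitted differences from Col-0 were below 0 in HRFR (40 of 44) and after 1 h (41), while after 25 h 24 were below 0 and 20 above, 11 of the latter replication genes. Averaged over light, 39 of 44 were below 0, with a median of -0.17 on the log2 scale (-0.26 without the pair that stood apart), and no member passed in that average (0.378% of all genes), in HRFR (0.0814%), after 1 h (0.177%) or after 25 h (0.254%). By edgeR 8, 2, 8 and 1 members had an unadjusted p below 0.05 in these 4 comparisons, and DESeq2 called 0 in each. CYCB1-1 illustrates the overlap, with 1.92, 4.33 and 4.3 CPM in Col-0 HRFR and 3.32, 1.9 and 2.23 in hfr1 HRFR. Without the pair of Col-0 libraries that stood apart, 14 members were lower in hfr1 in the average, among them CYCB1-1 (-0.56), CYCB1-2, CYCB1-4, CDKB2-1, KNOLLE, HINKEL, AUR1, MCM5, MCM7 and PCNA1. The absence of calls therefore depended on those libraries.

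The mutants were also set against each other. These comparisons were added after the data were seen and use the same pif457 libraries as those above. In HRFR 36 members were higher in pif457 than in hfr1 and none lower, where 15.3% of all genes passed and 8.84% were higher, and 29 of the 36 exceeded 0.6 on the log2 scale (5.06% of all genes). They included all 14 replication genes, 19 mitotic genes and CYCD3-1 to CYCD3-3. CYCB2-1, a low-level cyclin, was at 1.1, 0.766 and 0.61 CPM in hfr1 and at 1.6, 2.65 and 1.85 in pif457, a log2 fold change of 1.29 (SE 0.33, adjusted p = 0.0118). The Aurora kinase AUR1, which acts at the spindle and cell plate, was at 6.15, 4.76 and 3.91 against 8.26, 9.73 and 11.2 (0.97, SE 0.25, adjusted p = 0.012). Its paralogue AUR2, with which it may share reads, was at 7.36, 6.39 and 4.99 against 9.21, 11.1 and 9.08 (0.65, adjusted p = 0.0223). CDKB1-1, a kinase at the G2 to M step, was at 4.59, 2.9 and 3.45 against 4.93, 7.01 and 7.92 (0.85, adjusted p = 0.0162). TSO2, a small subunit of ribonucleotide reductase, the enzyme that makes deoxynucleotides, was at 58.4, 48.7 and 46.6 against 76.6, 84.8 and 85.8 (0.68, adjusted p = 0.00649). None of these groups overlapped. The part of root markers in this comparison was not tested. In HRFR the summed level of the 14 was 283 to 349 CPM in hfr1 and 235 to 267 in pif457. After 1 h it was 261 to 352 against 187 to 251. After 25 h the ranges, 230 to 346 against 245 to 252, overlapped. Of these markers 3 were higher in pif457 in HRFR (15.3% of all genes passed), 1 higher and 2 lower after 1 h (10.9%) and 1 higher after 25 h (11.1%).

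After 1 h of LRFR 16 members were higher in pif457 than in hfr1 and CYCD1-1 was lower (10.9% of all genes passed and 4.53% were higher). After 25 h 27 were higher and RNR2A was lower (11.1% passed and 4.74% were higher). CYCB1-1 showed the largest difference at 25 h, with 1.52, 3.11 and 2.75 CPM in hfr1 and 4.96, 6.65 and 5.27 in pif457 (1.19, SE 0.32, adjusted p = 0.0186). Leaving out a single library gave 10 to 36 passing members in HRFR, 4 to 33 after 1 h and 4 to 31 after 25 h. The lowest counts were without hfr1 HRFR replicate 3 (10), hfr1 LRFR 1h replicate 2 (4) and pif457 LRFR 25h replicate 2 (4). Counts also fell by over 1.5 times without hfr1 HRFR replicate 2 (17), pif457 HRFR replicate 2 (12) or 3 (15), hfr1 LRFR 1h replicate 3 (6), pif457 LRFR 1h replicate 2 (8) or 3 (8), hfr1 LRFR 25h replicate 1 (5), 2 (11) or 3 (13) and pif457 LRFR 25h replicate 1 (15) or 3 (7), and rose at 1 h without the pair that stood apart (31), without Col-0 HRFR replicate 1 (26) or hfr1 LRFR 1h replicate 1 (33).

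Light itself moved few members. In Col-0 after 1 h of LRFR, 40 of 44 fitted differences from HRFR were above 0 with a median of 0.20, but only CYCD1-1 passed (4.40% of all genes), and without the pair that stood apart 24 of 44 were above 0 with a median of 0.01. After 25 h only RNR2A passed (11.6%). Between 1 h and 25 h CYCD1-1 and CDC6 fell and RNR2A rose (13.5%), CDC6 from 4.35, 4.22 and 3.51 to 2.77, 3.09 and 2.06 CPM (-0.61, SE 0.17, adjusted p = 0.0179, not passing without Col-0 LRFR 1h replicate 1 or 2 or Col-0 LRFR 25h replicate 3). That count became 6 without Col-0 HRFR replicate 1, without Col-0 LRFR 1h replicate 3 and without the pair. In pif457 no member passed after 1 h (0.215%), after 25 h (2.37%) or between them (4.37%). There edgeR gave 0, 1 and 2 members an unadjusted p below 0.05 and DESeq2 called 0 in each. In hfr1 CYCD1-1 passed after 1 h (4.91%), RNR2A and MCM5 after 25 h (19.6%) and, between those times, CYCD1-1 fell (9.69% of all genes) and CYCD3-2 and RNR2A rose (10.4%). CYCD3-2 went from 35.7, 31.5 and 29.7 to 36.8, 40.1 and 42.2 CPM (0.30, SE 0.10, adjusted p = 0.0384), and did not pass without replicate 2 or 3 of hfr1 LRFR 1h or of hfr1 LRFR 25h, hfr1 HRFR replicate 2 or Col-0 HRFR replicate 3. MCM5 in hfr1 went from 21.9, 17.8 and 16.7 CPM in HRFR to 22.4, 27.5 and 26.2 (0.43, SE 0.15, adjusted p = 0.0462), a call that was lost without any of 12 single libraries. They were hfr1 HRFR replicate 2 or 3, hfr1 LRFR 25h replicate 2 or 3, any pif457 LRFR 25h replicate, replicate 3 of Col-0 HRFR, pif457 HRFR, hfr1 LRFR 1h or pif457 LRFR 1h, and Col-0 LRFR 1h replicate 2.

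CYCD1-1 was the only D-type cyclin that passed after 1 h of LRFR against HRFR. In Col-0 its libraries held 16.8, 18.6 and 18.8 CPM in HRFR, 24.7, 24.9 and 23.4 after 1 h and 16.3, 18.9 and 18.7 after 25 h. In hfr1 they held 18.1, 16.3 and 18.4, then 26.6, 23.2 and 25.1, then 16.6, 19.2 and 18. Each 1 h library of these genotypes was above every HRFR and 25 h library, and the log2 fold change after 1 h was 0.43 in Col-0 (SE 0.08, adjusted p = 9.91e-04) and 0.51 in hfr1 (SE 0.08, adjusted p = 1.12e-04). By 25 h it was -0.01 and 0.03 from HRFR, neither passing. In pif457 the libraries held 16.3, 18.2 and 18.5, then 16.6, 18.7 and 15.7, then 19.8, 18.8 and 20.6 CPM, and the 1 h change was -0.05 (SE 0.08). The difference between the 1 h responses of pif457 and Col-0 was -0.48 (SE 0.11, adjusted p = 0.0224), the only interaction any member passed, where 2.04% of all genes did. No gene of any kind passed an interaction of hfr1 with light, and by edgeR 1 member at 1 h and 0 at 25 h had an unadjusted p below 0.05. Over the alternatives the adjusted p of CYCD1-1 for pif457 reached 0.0825, and it was above the threshold with only the 4 groups of that comparison in the fit and without Col-0 HRFR replicate 1, pif457 HRFR replicate 2 or 3, Col-0 LRFR 1h replicate 1 or 2, or pif457 LRFR 1h replicate 1 or 3.

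RNR2A, a second small subunit of ribonucleotide reductase, rose later. Col-0 libraries held 18.8, 21.6 and 22.5 CPM in HRFR, 25.1, 23.1 and 24.1 after 1 h and 26.7, 33.7 and 34 after 25 h, and the rise over 25 h was 0.59 on the log2 scale (SE 0.08, adjusted p = 2.77e-05). In hfr1 the values were 20.7, 21.2 and 21.1, then 26.1, 22.2 and 24.7, then 36, 34.8 and 40, a rise of 0.82 (SE 0.08, adjusted p = 1.35e-07). The pif457 libraries began higher, at 25.1, 26.2 and 28.1 CPM, and held 28.4, 28.7 and 30.5 after 1 h and 29.5, 29.2 and 27.6 after 25 h, a change of 0.12 (SE 0.08, adjusted p = 0.623). So RNR2A was higher in pif457 than in Col-0 in HRFR (0.33, SE 0.08, adjusted p = 0.0327), and after 25 h it was lower in pif457 than in hfr1 (-0.36, SE 0.08, adjusted p = 0.00558). The difference between the 25 h responses of pif457 and Col-0 was -0.46 (SE 0.12) and did not pass (adjusted p = 0.0895, 0.460% of all genes passing). It passed without Col-0 LRFR 25h replicate 1 (-0.58, adjusted p = 0.00356), without the pair that stood apart (-0.51, adjusted p = 0.0106) and in DESeq2 (adjusted p = 0.0263). The other small subunit, TSO2, did not pass in any light comparison by edgeR (DESeq2 called it in hfr1 after 25 h), and its Col-0 libraries held 44.6, 70.8 and 63 CPM in HRFR and 54.8, 75.1 and 64.8 after 25 h.

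**Figure D5:**
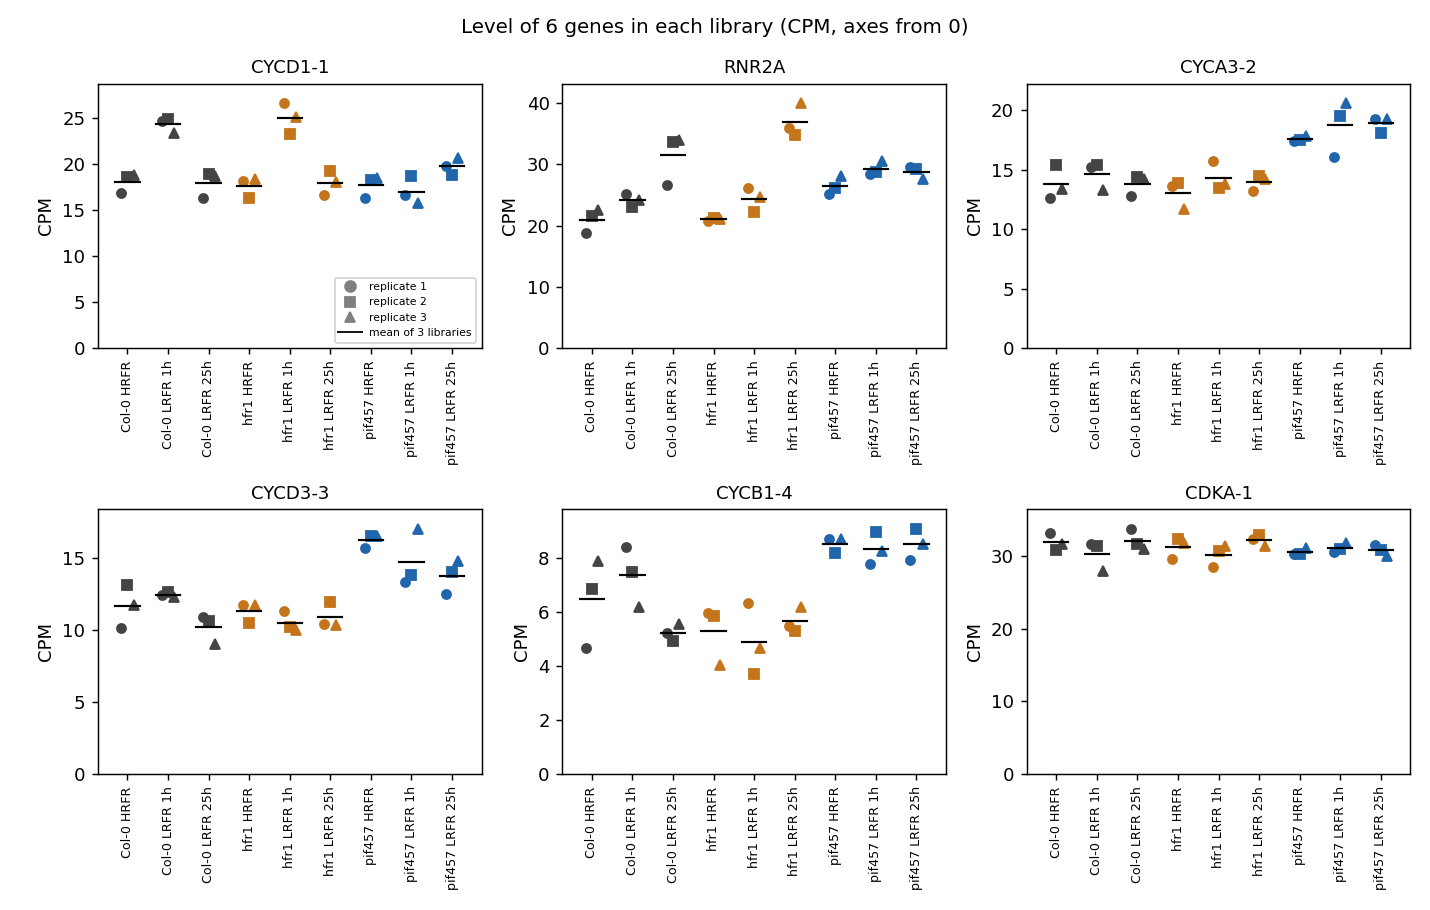
Level of 6 genes (CPM, vertical axes from 0) in each of the 27 libraries by group (horizontal axis); symbols mark replicates and bars the mean of 3. CYCD1-1 is at 23.2 to 26.6 CPM after 1 h of LRFR in Col-0 and hfr1 and at 15.7 to 18.7 in pif457, RNR2A reaches 34.8 to 40 in hfr1 after 25 h, and CDKA-1 lies at 28 to 33.8 in all libraries.

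Mean levels of mitotic and of replication genes were both highest in pif457 in each light, with a wider spread within groups in the former. The distance between these classes varied with genotype and light. Within groups the median SD over members was 0.339 on the log2 scale for mitotic genes, 0.209 for replication genes, 0.127 for D-type cyclins and 0.0581 for CDKA-1. The mitotic class level minus the replication class level was 0.10 ± 0.04, 0.02 ± 0.08 and 0.11 ± 0.09 in pif457 in HRFR, LRFR 1h and LRFR 25h, and 0.00 ± 0.17, 0.06 ± 0.17 and -0.14 ± 0.04 in Col-0. In hfr1 it was -0.04 ± 0.20, -0.10 ± 0.08 and -0.25 ± 0.06, so after 25 h the hfr1 libraries (-0.30 to -0.19), the Col-0 libraries (-0.17 to -0.09) and the pif457 libraries (0.02 to 0.19) did not overlap. The position of 0 is set by the Col-0 HRFR libraries and moves up by 0.10 without replicate 1, which leaves the distances between these groups as they are. These class differences are descriptions and were not tested.

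The members that did not pass across the 9 groups included some with level expression and some with few reads. CDKA-1, the cyclin-dependent kinase used at more than 1 step of the cycle, held 28 to 33.8 CPM in all 27 libraries and differed from Col-0 by -0.03 (SE 0.03) in pif457 averaged over light. E2FA, a transcription factor of replication genes, held 5.78 to 10.2 CPM and had 0.17 (SE 0.08, adjusted p = 0.139) between pif457 and Col-0 in the average, though it passed between pif457 and hfr1 in HRFR (0.50, adjusted p = 0.0183). CYCA2-1 was the lowest member, at 0.163 to 0.787 CPM, and its difference of 1.10 at 25 h came with an SE of 0.40 and did not pass (adjusted p = 0.0893), but passed without the pair that stood apart (1.67, adjusted p = 0.0342). CYCA2-2 and CDKB1-2 had averages of 0.18 (SE 0.13) and 0.34 (SE 0.17) that did not pass. Per kilobase of exon in Col-0 HRFR, TSO2 was the highest member at 35.2 CPM, followed by CYCD3-2 at 22.2, CDKA-1 at 21.3 and PCNA2 at 16.7, the MCM subunits lay at 4.52 to 9.93, and CYCA2-1 was at 0.186.

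Wider gene lists of the cell cycle were compared between pif457 and Col-0, where 6.87% of all genes passed at 25 h and 19.0% in the average over light. These calls include the pair that stood apart, and how many would pass without it was not tested. All 5 canonical H3.1 histone genes, which are made in S phase, were higher than in Col-0 at 25 h (0.55 to 0.71 on the log2 scale) and in the average over light. Of 18 further genes of mitosis and cytokinesis 8 were higher at 25 h and 15 in the average, with none lower, among them MAP65-3, a microtubule bundler of the phragmoplast (0.97 at 25 h, adjusted p = 0.0249), and TOP2, a DNA topoisomerase (0.86, adjusted p = 0.0411). Of 28 further replication genes 6 were higher at 25 h and 16 in the average, with none lower, led at 25 h by CDC6B, the second CDC6 gene (1.17, adjusted p = 0.00279), and ORC6, a subunit of the origin recognition complex (0.82, adjusted p = 0.0106). Of 25 regulators 1 passed at 25 h, the MSA-binding activator MYB3R4 (0.68, adjusted p = 0.0202), a share below that of all genes, and 13 in the average, all higher. They included RBR1 (0.12, adjusted p = 0.019) and the kinase WEE1 (0.36, adjusted p = 0.0199). Of 7 other tested cyclins 1 passed at 25 h, CYCD6-1, a D-type cyclin of asymmetric divisions in the root (0.53, adjusted p = 0.0218), and 1 in the average, CYCA3-4 (0.23, adjusted p = 0.0245). Of 16 CDK inhibitors 0 passed at 25 h by edgeR (2 had an unadjusted p below 0.05), and 4 were higher in the average, KRP3 (0.75, adjusted p = 0.00346), KRP7, KRP1 and SMR1.

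Marker lists of dividing tissues differed in the same comparison to unequal degrees, beside 19.0% of all genes passing in the average. They too were fitted only with the pair that stood apart. All 7 primordium markers, ANT, AIL6, GRF1, GRF2, GRF3, GRF5 and GIF1, were higher in pif457 in the average over light (0.31 to 0.74), and their summed level at 25 h was 76.2 to 89.9 CPM in pif457, 42.7 to 51.5 in Col-0 and 38.4 to 53 in hfr1. In HRFR the sums were 71.5 to 98, 42.6 to 62.6 and 37.6 to 59.8 CPM, and after 1 h 64.4 to 90.3, 61.3 to 88.3 and 65.7 to 88.7, which overlapped. Of 9 stomatal lineage markers 5 were higher in the average, BASL, SPCH, EPF2, POLAR and TMM (0.50 to 0.94), with sums at 25 h of 83.2 to 89.6 CPM in pif457 against 52.8 to 79.5 in Col-0 and 68.3 to 81.5 in hfr1. Of 14 root markers 4 were higher (FEZ, WOX5, PLT2 and RHD6) and 2 lower (EXPA18 and PRP3), and of 8 tested shoot meristem markers 1 passed, KNAT1, which was lower (-0.64, adjusted p = 4.37e-04). By edgeR 0 of 4 early lateral root and 0 of 4 green tissue markers passed in the average, and 0 of either list had an unadjusted p below 0.05 there. The part of the tissue markers in the cell cycle result was not tested.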

How the data were processed

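Total RNA of seedling pools was made into stranded mRNA libraries and sequenced on a NovaSeq instrument. The authors trimmed reads with Cutadapt, filtered ribosomal RNA out with fastq_screen, removed low-complexity reads with reaper, aligned them with STAR to the TAIR10 genome and counted them per gene with htseq-count. For tool versions and the strand setting the sources used here hold no entry. The deposited values are raw counts of reads per gene. Lines that name no gene held 6.15 to 7.09% of a library and were left out.

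From these counts, 1 model of 9 group means was fitted to all 27 libraries with edgeR 4.0.16 in R 4.3.3 (TMM normalization, filterByExpr, quasi-likelihood F-test, 18 residual degrees of freedom), and p-values were adjusted by the Benjamini-Hochberg method within each comparison over 20887 genes. P-values measure the spread between pools of seedlings. CPM are counts per 1000000 reads after TMM scaling, and class levels use a prior count of 2. On simulated data of the Col-0 comparison of 25 h LRFR with HRFR, 16%, 62%, 92% and 100% of 50 genes each, changed by 0.3, 0.6, 1 and 2 on the log2 scale, were found among 20757 genes. The members, gene lists and comparisons were chosen with earlier results of these data known. Library values are given for passing members whose groups do not overlap, largest change first and up to 12 per direction, for members passing an interaction, and for further members chosen after their values were seen. From a wider list at most 6 genes per comparison are named by that rule, beside short lists of passing genes. Names such as CYCB1-1 stand for the form with a semicolon between the digits. Promoter stretches were read from the TAIR10.1 genome of RefSeq. The alternatives were DESeq2 1.42.0 (the tool of the study), other normalizations and filters, a log2 fold threshold of 0.6, fewer groups in the fit, a replicate block and libraries left out.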

Additional observations from a re-analysis of the deposited data

Results flagged for a closer look

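CYCD1-1, the D-type cyclin described above, stood out because its response to 1 h of LRFR differed between pif457 and Col-0 in a direct test of that difference. The interaction was -0.48 on the log2 scale (SE 0.11), with an adjusted p of 0.0224 by the quasi-likelihood test of edgeR. All 3 Col-0 libraries after 1 h (23.4 to 24.9 CPM) were above all 3 Col-0 HRFR libraries (16.8 to 18.8), while the pif457 libraries after 1 h (15.7, 16.6 and 18.7) overlapped those in HRFR (16.3, 18.2 and 18.5).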

How the results depend on the processing

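None of the 69 calls followed through the alternatives changed direction. Only calls that passed with groups that did not overlap, or passed an interaction, entered this check, so a reversal was unlikely from the start. Outside them fitted signs did change. In the interaction of hfr1 with 1 h of LRFR, where no member passed, 9 of 44 fitted differences were above 0 (median -0.08), and 34 were without the pair that stood apart (median 0.09). On a fixed reference, class levels moved by less than the spread between replicates under the median, the removal of near-copies and DESeq2 size factors. Removing single libraries, chosen after seeing the data, cannot decide this, since with 3 libraries the shift is always smaller than their SD. Leaving Col-0 HRFR replicate 1 out of the reference lowers all mitotic levels by 0.25, more than the SD of the pif457 groups in HRFR (0.17) and after 25 h (0.14). Of 69 calls of named members, 321 of 2509 recomputed values no longer passed, 256 of them among the 1863 that left out 1 library. All 69 calls were kept in DESeq2, with the replicate block and with a filter of at least 1 CPM. Counts of passing members that moved by over 1.5 times were as follows. With a log2 fold change above 0.6 also required, they were 0 in Col-0 after 1 h, 0 after 25 h and 1 between those times, 0, 1 and 1 in hfr1, 0, 0 and 9 for pif457 against Col-0 in HRFR, 1 h and 25 h and 3 in the average over light, 0 for the interaction at 1 h and 9 for pif457 against hfr1 at 1 h. With only the compared groups in the fit they were 0 in Col-0 after 25 h and 1 between 1 h and 25 h, 9 in hfr1 after 25 h, 0, 1 and 5 for pif457 against Col-0 in HRFR, 1 h and 25 h, and 0 for the interaction at 1 h. With the 18 libraries of Col-0 and pif457 the same 3 genotype comparisons gave 1, 1 and 8. DESeq2 gave 6 for pif457 against Col-0 in HRFR and 1 for the interaction at 25 h, and upper quartile scaling gave 1 in hfr1 after 25 h. Without the pair of Col-0 libraries that stood apart, counts were 6 in Col-0 between 1 h and 25 h, 2 and 5 in hfr1 after 1 h and 25 h, 1, 5 and 9 for pif457 against Col-0 in HRFR, 1 h and 25 h, 1 for the interaction at 25 h, 31 for pif457 against hfr1 at 1 h and 14 for hfr1 against Col-0 averaged over light. The causes were not tested.

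Leaving out 1 library at a time gave 35 to 38 for any difference among the 9 groups, 2 to 6 in Col-0 between 1 h and 25 h, 1 to 3 in hfr1 after 25 h and 2 to 3 between 1 h and 25 h. It gave 0 to 8, 1 to 4 and 1 to 26 for pif457 against Col-0 in HRFR, 1 h and 25 h, 31 to 37 in the average, 10 to 36, 4 to 33 and 4 to 31 for pif457 against hfr1, and 0 to 1 for each pif457 interaction.

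The main fit did not pair libraries by replicate number. Correlations of deviations from group means ran from -0.494 to 0.621 between libraries of the same number (median 0.0134). Between libraries of different number they ran from -0.473 to 0.376 (median -0.000929). Of the 27 libraries, 13 correlated best with their own number among the 3, and a shared origin of libraries with the same number was not tested. A replicate block gave 36 members among the 9 groups, 4, 3 and 18 for pif457 against Col-0 in HRFR, 1 h and 25 h, 37 in the average and 36, 18 and 27 for pif457 against hfr1, and moved no count by over 1.5 times. Low members limit the precision: CYCA2-1, CYCD4-1, CYCB2-1 and CYCA2-2, at no more than 2.93 CPM in any library, had few reads behind each value.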

Other observations

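Of 145 tested genes of the wider lists and marker lists, 3 passed the interaction of pif457 with 1 h of LRFR (2.07%, beside 2.04% of all genes): the CDK inhibitor SMR1, the primordium gene GRF3 and the root cap gene FEZ. They were picked after their values were seen. SMR1, of the family of SIAMESE-related proteins that hold CDKs back, was at 28.4, 26.1 and 29.4 CPM in Col-0 HRFR, and all 3 libraries after 1 h were lower, the lowest at 17.1. That was a log2 change of -0.55 (SE 0.08, adjusted p = 7.04e-05 by edgeR), and in hfr1 it fell by 0.71 (SE 0.08, adjusted p = 1.4e-06). In pif457 it was at 29.1, 26.4 and 27 CPM and then 30.5, 27.8 and 27.6, and the interaction was 0.61 (SE 0.12, adjusted p = 0.00337). FEZ was listed at no more than 0.585 CPM in any library, so its interaction (-3.29, SE 0.87, adjusted p = 0.0486) rests on few reads.

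GRF3, a growth-regulating transcription factor of young leaves, was at 9.03, 14 and 13.5 CPM in Col-0 HRFR, 27.1, 29.1 and 24.3 after 1 h and 8.17, 10.6 and 10 after 25 h, a rise of 1.15 after 1 h (SE 0.18, adjusted p = 1.18e-04 by edgeR). In pif457 the values were 16.9, 22.2 and 19.7 in HRFR and 16.9, 19.4 and 15.4 after 25 h, and after 1 h the lowest was 13.7, with every library below the lowest of Col-0. The interaction at 1 h was -1.31 (SE 0.25, adjusted p = 0.00351). So pif457 was above Col-0 in HRFR (0.69) and after 25 h (0.85) and below it after 1 h (-0.62), where the summed primordium markers of the genotypes overlapped.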
